A study of Homo sapiens with 18 samples.

Results

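The axon guidance ligands and receptors are the semaphorins of classes 3 to 7, the plexins and neuropilins that receive them, the SLITs and their ROBO receptors, the netrins with DCC and the UNC5 receptors, and the ephrins with the EphA and EphB receptors. Members were taken by gene symbol alone, with no use of measured values, which gave 71 of the 26372 genes in the table. They fall into 11 families: 20 semaphorins, 9 plexins, 2 neuropilins, 3 SLITs, 4 ROBOs, 6 netrins, 5 members of the DCC and UNC5 family, 9 EphA and 5 EphB receptors, 5 ephrin-A and 3 ephrin-B ligands. They were measured by RNA-seq of ribosome-depleted total RNA from SH-SY5Y, an established cell line from a human sympathetic neuroblastoma, which can be turned into neuron-like cells. The cells carried a lentiviral plasmid, derived from FUGW, with 1 of 3 forms of ZNHIT3, a zinc-finger protein that takes part in assembling the ribonucleoproteins of box C/D small nucleolar RNAs. The forms were wild type (WT), the substitution C14R, and a deletion whose treatment label reads 251-254, 251-255 or 251-256 in replicates 1, 2 and 3 and which is called the deletion throughout. Each form was sampled at day 0 and at day 18, with 3 libraries in each of the 6 groups, 18 in all. The day 18 cells had been placed, 48 hours after infection, in serum-free neurobasal/B27 medium with all-trans retinoic acid (10 μM), dibutyryl cyclic AMP (2 mM), BDNF (50 ng/ml) and KCl (20 mM), while cells were otherwise kept in serum-containing MEM. All groups share the infection and the single cell line, and whether the cells' own ZNHIT3 had been removed is not given in the sources used here. The labels do not say that replicates were separate cultures, so p-values measure only the spread between these libraries.

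Guidance cues steer growing axons by attraction or repulsion, each through receptors on the growth cone that act on actin and microtubules. Class 3 semaphorins are secreted and act mainly through a neuropilin that binds the ligand and a class A plexin that signals, whereas class 4 to 6 semaphorins span the membrane and bind plexins directly. SLITs repel axons through ROBO receptors, netrins attract through DCC and repel with UNC5 receptors, and ephrins on one cell bind Eph receptor tyrosine kinases on the next, with signals passing both ways. In sympathetic neurons and the neural crest cells they come from, semaphorin and neuropilin signals guide migration and axon growth.

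Promoter sequences are shown for 4 members with large day 18 changes, since the day 18 medium held a cyclic AMP analogue and retinoic acid, and the factors that answer to these agents bind known DNA motifs. NRP2 and EPHA2 fell from day 0 to day 18 and EPHB1 and SLIT1 rose. Each line gives the 150 bases before the RefSeq start site on the strand of the gene, build GRCh38.p14, at chr2:205682351-205682500 (plus strand), chr1:16156070-16156219 (minus strand), chr3:134795110-134795259 (plus strand) and chr10:97185960-97186109 (minus strand), with capitals for GGGCGG, the GC box, and for TGACGTCA, the full cyclic AMP response element.
NRP2: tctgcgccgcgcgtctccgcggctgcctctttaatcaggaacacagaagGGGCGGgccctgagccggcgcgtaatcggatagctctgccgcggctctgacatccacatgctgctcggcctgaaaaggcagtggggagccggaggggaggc
EPHA2: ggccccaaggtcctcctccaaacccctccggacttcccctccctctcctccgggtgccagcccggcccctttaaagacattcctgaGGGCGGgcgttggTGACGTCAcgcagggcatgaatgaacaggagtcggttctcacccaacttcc
EPHB1: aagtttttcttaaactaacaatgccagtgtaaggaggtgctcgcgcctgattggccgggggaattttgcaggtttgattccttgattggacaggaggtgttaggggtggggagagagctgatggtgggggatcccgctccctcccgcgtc
SLIT1: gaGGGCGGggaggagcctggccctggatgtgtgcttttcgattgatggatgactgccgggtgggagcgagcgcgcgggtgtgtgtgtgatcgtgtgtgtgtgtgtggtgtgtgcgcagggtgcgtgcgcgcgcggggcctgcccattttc

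In these 4 stretches the full element was found in EPHA2 alone, at -51 to -44 from the start, a few bases downstream of a GC box at -64 to -59. The RefSeq table held a promoter of 300 bases, 250 before and 50 after the start, for 60 of the 71 members and for 27305 symbols in all. The 11 members without an entry were EFNB3, EPHA10, NRP1, NTN1, NTN3, NTNG2, SEMA3A, SEMA6A, SEMA6B, UNC5B and UNC5D. TGACGTCA, searched on both strands, was found in the promoters of 2 members, EPHA2 and SEMA4C, or 3.33% against 1.98% of all promoters. Its shorter form TGACG, which lies within it, was found in 15 members (25%) and in 25% of all promoters. AGGTCA, the core motif of retinoic acid receptors, was found in 6 members (10%) against 13.9% of all promoters. A direct repeat of AGGTCA with a gap of 5 bases was found in none of the 60 and in 1 of all 27305 promoters (0.00366%). It is too rare in this window for its absence to say anything about the members. GGGCGG was found in 45 members (75%) against 44.6% of all promoters, and median GC content was 65.2% in the members against 58.3% overall. Of the members past the threshold in the same direction in all 3 constructs, TGACG lay in 5 of the 14 promoters of those that rose (35.7%) and 4 of the 20 of those that fell (20%), and GGGCGG in 78.6% and 75% of the same promoters. These are matches of letters in a fixed window and do not show that a factor binds there.

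The libraries of a group resembled each other closely, with correlations of log2 values between 0.984 and 0.994, and the first principal component, which separated the days, held 86.9% of the variance. C14R day 18 replicate 1 stood apart on the second component (2.49% of the variance), at 24.8 against -8.27 to 9.27 for the others. The day 0 libraries of a group were uneven in their FPKM sums, at 2222000, 1004000 and 987600 in WT. The small nucleolar RNA SNORD3A held 58.56%, 7.693% and 8.626% of these sums, 52.87%, 7.551% and 57.35% in C14R, and 51.45%, 6.875% and 18.56% in deletion cells. ZNHIT3 itself read 531 to 542 FPKM on day 0 and 1103 to 1193 at day 18 in WT cells, 419 to 432 and 600 to 756 in C14R cells, and 292 to 310 and 294 to 313 in deletion cells. FPKM, fragments scaled to transcript length and library depth, is the deposited unit, and the low values of the columns put each library at 69.7% to 100% of the deepest of its day. Neuroblast markers were abundant on both days: in WT cells ELAVL4 read 137 to 227 FPKM and STMN2 506 to 728 from day 0 to day 18, whereas TH, the rate-limiting enzyme of catecholamine synthesis, stayed under the filter on low values (0.0406 to 0.535 FPKM). Of the 9 tested neuroblast markers 5 rose and 2 fell in WT: GATA2 fell from 98.8 to 26.1 FPKM (-1.88, limma adjusted p = 3.98e-14) and GATA3 from 96.2 to 69.3 (-0.47), and both fell in C14R and deletion cells too. The summed level of the 10 markers was 1415 to 1438 FPKM in the WT libraries of day 0 and 2080 to 2157 at day 18, with DBH, the enzyme that makes noradrenaline, going from 64.0 to 445. Other markers moved with day, and this stands beside all day comparisons that follow. All 8 tested markers of mesenchymal, substrate-adherent neuroblastoma cells fell in all 3 constructs, their summed level from 889 to 910 FPKM at day 0 to 145 to 152 at day 18 in WT, from 847 to 877 to 147 to 152 in C14R and from 943 to 1005 to 142 to 144 in deletion cells, with PRRX1 listed at 0 in the WT day 18 libraries and VIM still at 49.3 FPKM. All 6 proliferation markers fell too, from a sum of 274 to 282 FPKM to 98.9 to 105 in WT, with 104 to 129 at day 18 in C14R and 101 to 106 in deletion cells. Of the Schwann cell and glia markers, S100B rose from 1.40 to 5.55 FPKM in WT (limma adjusted p = 3.45e-08), with SOX10 at 0.321 to 0.254 and GFAP at 0.149 to 0.176 below the filter. The summed level of the 5 blood, endothelium and epithelium markers was 0.864 to 1.2 FPKM at day 0 and 1.09 to 1.79 at day 18 in WT. EPCAM made up most of this sum, with WT means of 0.907 FPKM at day 0 and 1.202 at day 18. ALB was at 0 in every WT day 0 library. The part of these cell markers in the results was not tested, and in bulk RNA fewer cells of a type cannot be told apart from less RNA per cell.

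The guidance genes changed widely over the 18 days. In 10 of the 11 families, all but the neuropilins, some members rose in WT while others fell. All genes tested were also split between higher and lower, in the shares given below. The ROBO family was mixed in WT through ROBO3 alone, and no ROBO member passed as higher in C14R or deletion cells. Of the 71 members, 54 had a mean of at least 1 FPKM over the 18 libraries and were tested, and 17 were below that filter. In WT cells 45 of the 54 (83.3%) passed an adjusted p of 0.05 in limma, 22 higher and 23 lower at day 18, against a background of 72.2% of the 13785 genes tested, 38.2% higher and 34.0% lower. In C14R cells 45 passed, 19 higher and 26 lower, against a background of 72.9% (37.9% higher, 35.0% lower). In deletion cells 46 (85.2%) passed, 20 higher and 26 lower, against 73.0% (38.6% higher, 34.4% lower). Large changes, of at least 1 on the log2(FPKM + 1) scale, were seen for 17 members (31.5%) in each construct, against 14.1% of all genes tested in WT, 13.9% in C14R and 14.4% in deletion cells. Those 17 comprised 8 higher and 9 lower members in each construct, while the members' median log2 change was -0.04 in WT beside 0.03 over all genes. In all 3 constructs 41 members (75.9%) passed in the same direction, 18 higher (33.3%) and 23 lower (42.6%), against 63.0% of all genes tested, 33.3% higher and 29.7% lower. Of the others 9 passed in 1 or 2 constructs, 4 in none, and none passed in opposite directions. Near 1 FPKM this scale shrinks a change, so means in FPKM are given beside it. The filter is a mean over both days, so some members met it only through the day on which they were high. EPHB1 did so through day 18, and NRP2 and PLXND1, with day 18 means under 1 FPKM in each construct, through day 0. Their calls and fold changes carry that limit. The small nucleolar RNA SNORD3A held 6.875% to 58.56% of the FPKM sum in the day 0 libraries and 1.01% to 15.1% at day 18. With 2384 small RNA genes left out, the remaining sum was 432500 to 447100 at day 0 and 373200 to 390800 at day 18. Rescaling the columns to that sum raised day 18 values relative to day 0, and the median of all genes in WT moved from 0.03 to 0.21. Median-of-ratios scaling moved that median the other way, to -0.02. Why the remaining sums differ between days was not tested. With small RNA genes left out, the members' split was 25 higher and 20 lower in WT, 24 and 22 in C14R and 24 and 23 in deletion cells. Of all genes past the threshold, 68.7% were then higher in WT in place of 52.9%, 66.5% in C14R in place of 52.0% and 69.5% in deletion cells in place of 52.8%, so the members' changes are read relative to that shift. No member that passed both ways changed direction.

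**Figure D1:**
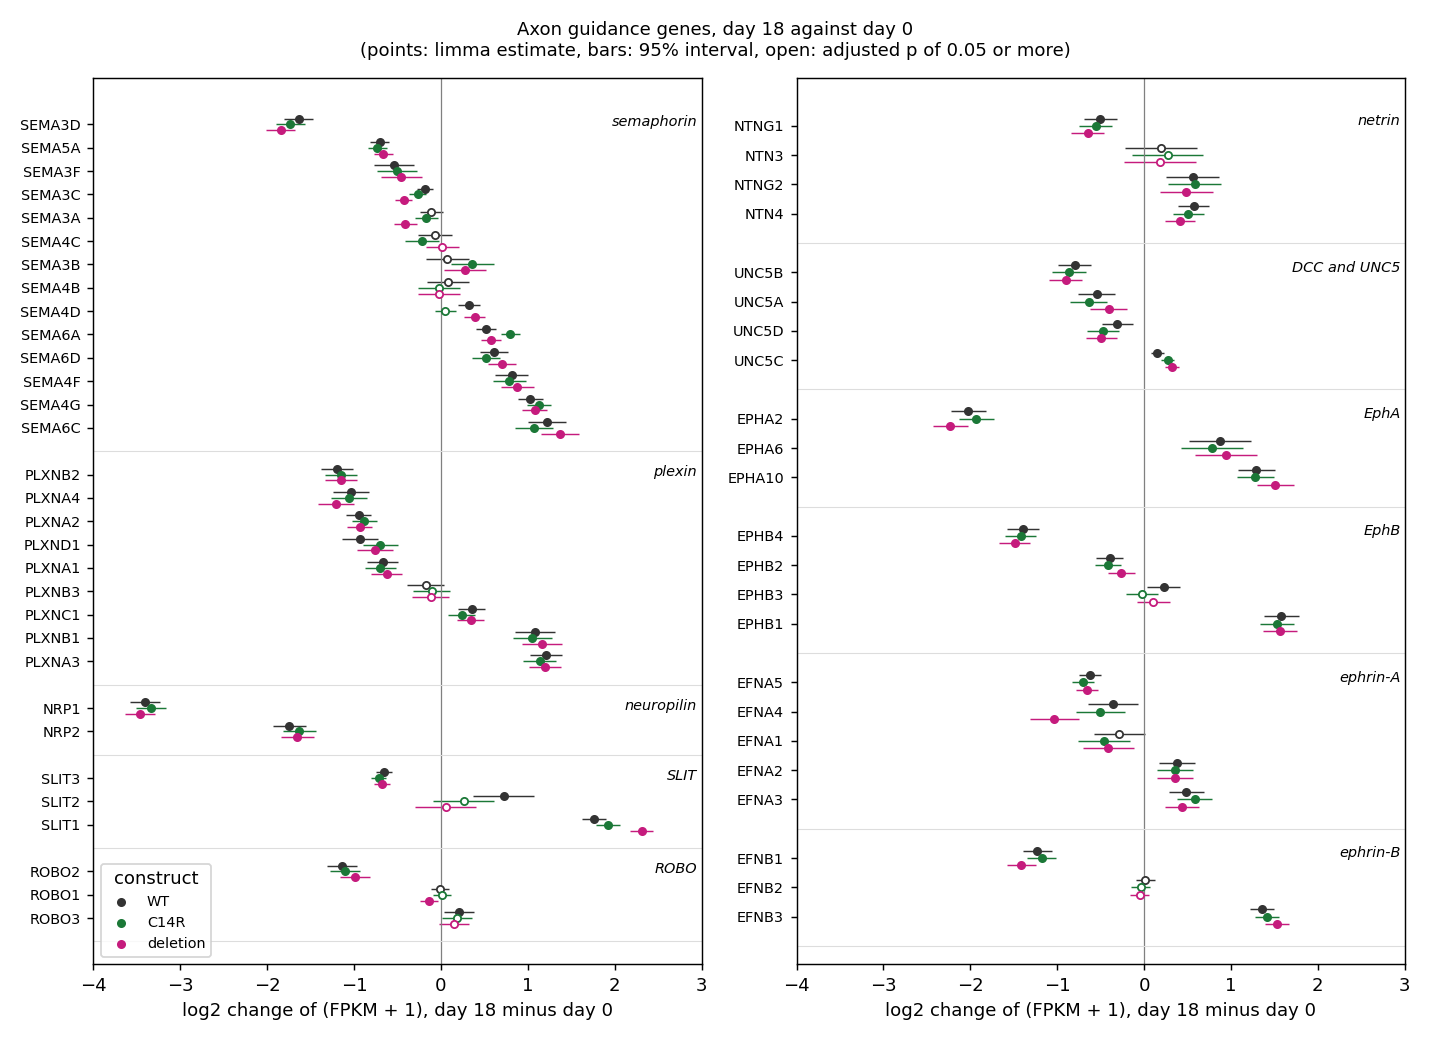
Log2 change of FPKM + 1 from day 0 to day 18 (x axis) for the 54 tested members by family, one colour for each construct, with limma's 95% interval as a bar and open circles for an adjusted p of 0.05 or more. The neuropilins lie farthest to the left, at -3.41 and -1.75 in WT, SLIT1 and EPHB1 farthest to the right, at 1.76 and 1.58, and the 3 constructs lie close together for most members. In WT the signs of SEMA3A, SEMA3C, SEMA4C and ROBO1 turn when small RNA genes are left out, and those of SEMA3B and EFNB2 under other scalings.

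All 3 tested semaphorins of class 6, which span the membrane, rose in all 3 constructs, and the secreted class 3 was mixed. Of the 5 tested class 3 members, 3 fell and none rose in WT, and 4 fell and 1 rose in C14R and in deletion cells. With small RNA genes left out, SEMA3D and SEMA3F alone of the 5 still fell in WT, and the classes were not tested against each other. In class 4, 3 of 5 rose in WT and none fell, and SEMA5A, the only tested member of class 5, fell. SEMA3D, which repels and steers neural crest cells and axons, fell 4.92-fold in WT: it read 5.89, 5.42 and 5.94 FPKM on day 0 and 1.22, 1.01 and 1.28 at day 18 (log2 change -1.64, SE 0.08, limma adjusted p = 4.85e-12). No day 18 library of any construct reached the lowest day 0 library (4.99 to 6.03 against 0.747 to 1.28 FPKM). SEMA3F, the main ligand of NRP2, fell from 3.78 to 2.28 FPKM (limma adjusted p = 2.96e-04). SEMA5A fell from 19.1 to 11.3 FPKM (limma adjusted p = 1.58e-09).

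SEMA3C was the most abundant semaphorin and held 46.0% of the family's summed FPKM at day 0 in WT. It read 71.7, 70.5 and 74.0 FPKM on day 0 and 61.3, 64.3 and 64.3 at day 18 in WT, a small fall (log2 change -0.18, SE 0.05, limma adjusted p = 0.00167) that was -0.27 in C14R and -0.43 in deletion cells. With small RNA genes left out the WT value was 0.02, on the other side of 0 (limma adjusted p = 0.694). SEMA3A, the classical collapsing factor of growth cones, did not pass in WT (5.91 to 5.40 FPKM, limma adjusted p = 0.129) and fell in C14R (-0.17, limma adjusted p = 0.0265) and deletion cells (-0.41, limma adjusted p = 1.77e-05), the C14R call being lost with small RNA genes left out (limma adjusted p = 0.904). SEMA3B read 1.36 to 1.47 FPKM in WT without passing (limma adjusted p = 0.573), and rose in C14R and deletion cells by 0.36 and 0.28 on the log2 scale.

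SEMA6C, a ligand of class A plexins, rose 2.66-fold in WT, from 4.29, 4.36 and 3.95 FPKM to 11.96, 10.3 and 11.2 (log2 change 1.22, SE 0.10, limma adjusted p = 8.65e-09). SEMA6D rose from 3.95 to 6.54 FPKM (limma adjusted p = 1.48e-06). SEMA6A, which binds PLXNA2 and PLXNA4, rose from 6.81 to 10.2 FPKM (limma adjusted p = 1.28e-07). For each of these class 6 members every day 18 library of the 9 lay above every day 0 library. SEMA4G rose from 4.50, 4.49 and 5.54 FPKM to 11.2, 11.2 and 10.3 in WT (log2 change 1.03, SE 0.07, limma adjusted p = 3.36e-10). Its gene body overlaps the coding gene MRPL43 and the use of strand in counting is not given in the sources used here, so its reads may be shared. SEMA4F rose from 3.39 to 6.73 FPKM (limma adjusted p = 2.89e-07). SEMA4D, the ligand of PLXNB1, rose in WT and deletion cells (0.32 and 0.39) but did not pass in C14R (0.05, limma adjusted p = 0.439). SEMA4B (6.30 to 6.72 FPKM) and SEMA4C (9.76 to 9.26 FPKM) did not pass in WT, and the sign of SEMA4C there turned when small RNA genes were left out. SEMA4C fell in C14R (-0.22, limma adjusted p = 0.0388), a call lost under the same alternative (limma adjusted p = 0.612). Summed over the family, semaphorin FPKM in WT was 157 ± 3.30 at day 0 and 159 ± 0.360 at day 18 (SD, n = 3), a log2 ratio of 0.02 that was -0.03 with median-of-ratios scaling and 0.23 with small RNA genes left out.

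The neuropilins, the co-receptors that bind class 3 semaphorins, both fell in all 3 constructs, and of the 11 families theirs had the lowest ratio of summed FPKM at day 18 to day 0 in WT. NRP1, which binds SEMA3A and also the growth factor VEGF, read 29.95, 32.1 and 30.5 FPKM on day 0 and 1.93, 2.00 and 2.06 at day 18 in WT. In C14R cells it read 30.7, 29.04 and 31.1 at day 0 and 2.61, 1.83 and 1.89 at day 18, and in deletion cells 31.6, 32.6 and 31.9 and 2.15, 1.68 and 2.19. The days did not overlap in any construct, and C14R day 18 replicate 1 was the highest of the day 18 libraries. The fall was 15.5-fold in WT (log2 change -3.41, SE 0.08, limma adjusted p = 4.90e-16), 14.3-fold in C14R and 15.98-fold in deletion cells, the largest change among the 54 members in each construct. NRP2, which binds SEMA3F, read 4.51, 4.67 and 3.89 FPKM on day 0 and 0.615, 0.542 and 0.621 at day 18 in WT, a 7.35-fold fall (log2 change -1.75, SE 0.09, limma adjusted p = 1.13e-11). The other constructs gave -1.63 and -1.65. Together the pair went from 35.2 ± 1.37 to 2.59 ± 0.0784 FPKM in WT (SD, n = 3). NRP1 lies on chromosome 10, 33177492 to 33336262, minus strand, and NRP2 on chromosome 2, 205681990 to 205798133, plus strand, in GENCODE 29 (GRCh38). The GENCODE start of NRP2 is upstream of the RefSeq start used above, so the NRP2 stretch shown lies within the GENCODE gene. Of the mesenchymal markers that fell with the neuropilins, CD44 went from 32.4 to 2.91 FPKM and FN1 from 97.8 to 7.19 in WT. The part of these markers in the neuropilin result was not tested.

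The plexins, which carry the semaphorin signal into the cell, changed their composition: 5 of 9 fell, 3 rose and 1 did not pass, and the same 8 passed in the same directions in all 3 constructs. The 4 most abundant plexins of day 0 all fell. PLXNA4, which signals for SEMA3A and SEMA6A, read 35.7, 33.0 and 31.6 FPKM on day 0 and 14.5, 16.7 and 16.2 at day 18 in WT (log2 change -1.04, SE 0.10, limma adjusted p = 3.73e-08). PLXNB2, a class 4 semaphorin receptor, went from 29, 29.5 and 28.2 to 12.3, 12.7 and 11.1 FPKM (log2 change -1.20, SE 0.09, limma adjusted p = 1.20e-09). Both were lower in each of the 9 day 18 libraries than in any day 0 library. PLXNA2 fell from 20.9 to 10.4 FPKM and PLXNA1 from 9.18 to 5.40 FPKM (log2 changes -0.94 and -0.67), and PLXND1, the receptor of SEMA3E, from 2.25 to 0.696 FPKM (-0.93).

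PLXNA3, which pairs with NRP2 to receive SEMA3F, rose 2.62-fold in WT, from 3.74, 4.58 and 4.26 to 10.8, 10.96 and 11.1 FPKM (log2 change 1.21, SE 0.09, limma adjusted p = 1.39e-09). PLXNB1, the SEMA4D receptor, rose 2.31-fold, from 5.53, 6.36 and 5.30 to 13.2, 13.5 and 13.1 FPKM (log2 change 1.09, SE 0.11, limma adjusted p = 7.63e-08). C14R day 18 replicate 1 was the lowest of the 9 day 18 libraries for both, at 8.90 and 9.66 FPKM, yet stood above every day 0 library. PLXNC1, a receptor of SEMA7A, rose from 2.24 to 3.15 FPKM (limma adjusted p = 3.99e-04), and PLXNB3 did not pass (1.78 to 1.47 FPKM, limma adjusted p = 0.132). PLXNA3 overlaps LAGE3, PLXNC1 overlaps CEP83 and PLXNB3 overlaps SRPK3, so their reads may be shared with these coding genes. In WT, PLXNA3 and PLXNB1 went from 3.87% and 5.27% of the family's FPKM to 15.0% and 18.1%, and PLXNA4 went from 30.8% to 21.6%. The summed plexin FPKM went from 109 ± 4.52 to 73.2 ± 2.00 in WT (SD, n = 3).

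**Figure D2:**
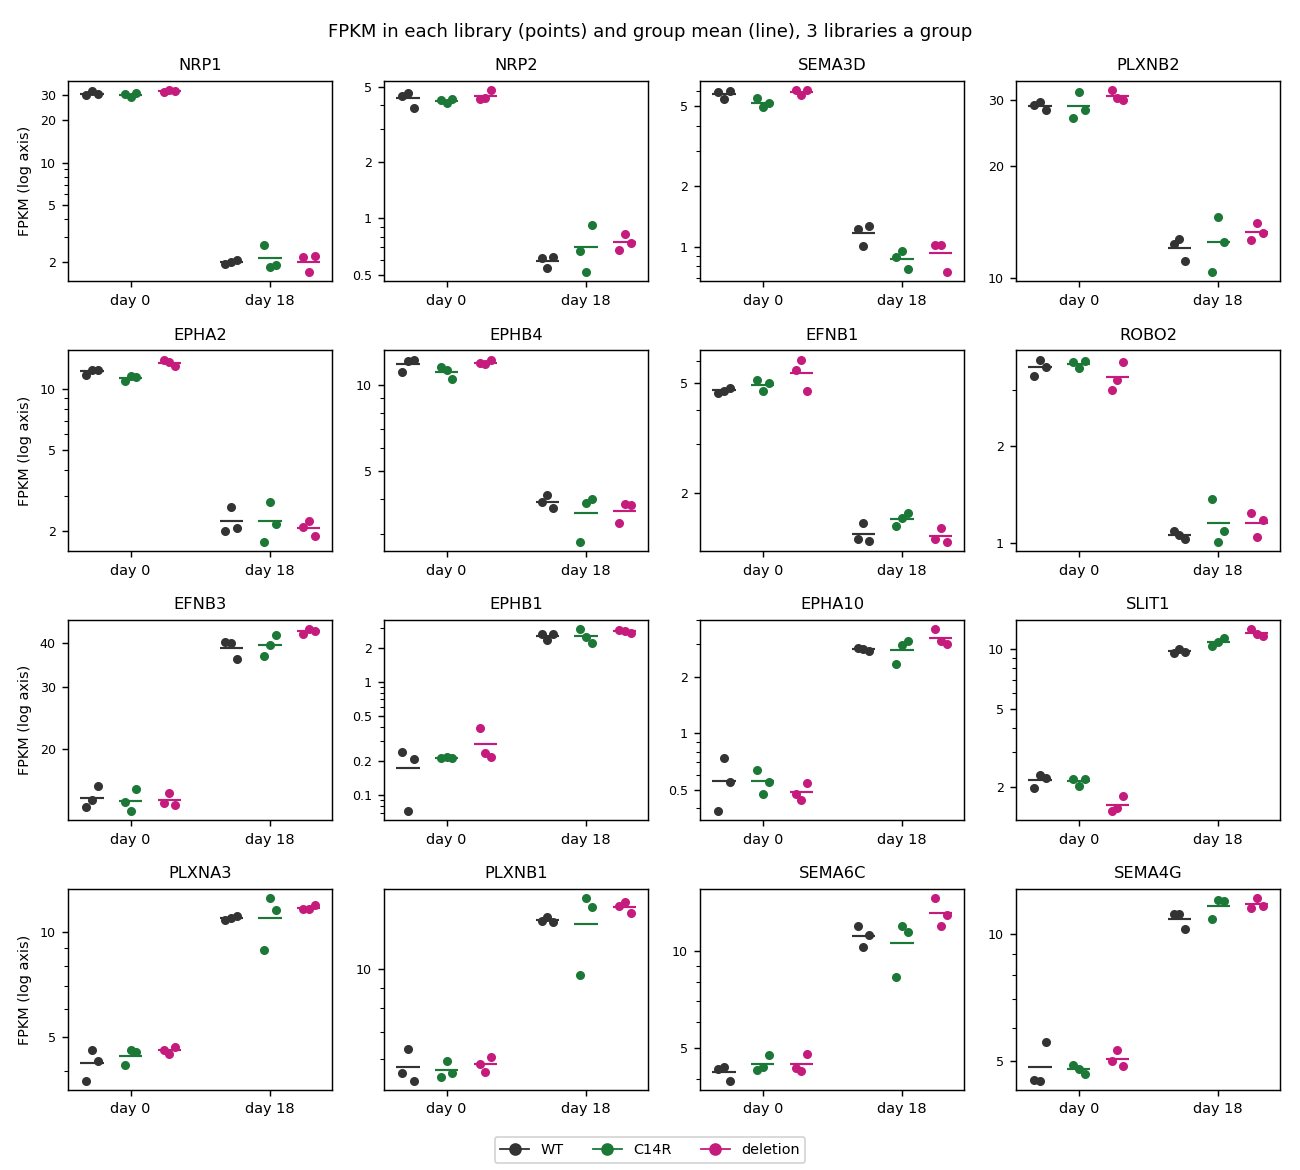
FPKM on a log axis in each library (points) with the mean of each group of 3 (line), for 16 members with large day changes, at day 0 and day 18 and coloured by construct. The upper 8 panels fall and the lower 8 rise, the days are apart in every panel, and NRP1 falls from 30.8 to 2.00 FPKM in WT while EFNB3 rises from 14.5 to 38.8.

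The SLIT ligands shifted from SLIT3 toward SLIT1. SLIT3 was the most abundant SLIT throughout and fell in all constructs, in WT from 70.5, 72.0 and 74.8 to 43.9, 47.2 and 46.0 FPKM (log2 change -0.65, SE 0.04, limma adjusted p = 3.17e-10). SLIT1, a repellent made by neurons, read 1.97, 2.32 and 2.23 FPKM on day 0 and 9.50, 10.0 and 9.66 at day 18 in WT. It read 2.21, 2.03 and 2.21 and then 10.4, 10.9 and 11.4 in C14R, and 1.51, 1.58 and 1.81 and then 12.6, 11.9 and 11.7 in deletion cells. The days were far apart in each construct, and the deletion libraries were the lowest of day 0 and the highest of day 18. SLIT1 rose 4.48-fold in WT (log2 change 1.76, SE 0.06, limma adjusted p = 1.31e-13), 5.08-fold in C14R (1.92) and 7.38-fold in deletion cells (2.31). Its share of the summed SLIT FPKM went from 2.74% to 15.2% in WT and from 2.02% to 19.1% in deletion cells. SLIT1 lies on chromosome 10, 96998038 to 97185920, minus strand, and shares its locus with the read-through gene ARHGAP19-SLIT1.

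SLIT2 rose in WT and did not pass in either variant. In WT it read 4.37, 5.21 and 4.65 FPKM on day 0 and 7.68, 9.14 and 8.62 at day 18 (log2 change 0.72, SE 0.17, limma adjusted p = 8.69e-04). In C14R it read 4.59, 4.86 and 4.01 and then 3.77, 7.90 and 5.68 (limma adjusted p = 0.163). In deletion cells it read 4.54, 5.04 and 4.49 and then 3.99, 6.20 and 4.73 (limma adjusted p = 0.777). The C14R and deletion libraries of day 18 spread widely and overlapped those of day 0, and the test of the difference between constructs, given with the construct comparisons, did not pass. The summed SLIT FPKM was 79.3 ± 2.43 and 63.9 ± 2.65 in WT (SD, n = 3), a log2 ratio of -0.31 that was -0.10 with small RNA genes left out.

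Of their receptors, ROBO2 fell and ROBO1, the main one here, did not pass in WT. ROBO1 read 18.1, 17.2 and 17.1 FPKM on day 0 and 16.6, 17.1 and 18.5 at day 18 in WT, with overlapping days (log2 change -0.00798, SE 0.05, limma adjusted p = 0.889, 95% interval -0.11 to 0.10). With small RNA genes left out ROBO1 passed in the higher direction (0.19, limma adjusted p = 0.00436). ROBO1 fell slightly in deletion cells (-0.14, limma adjusted p = 0.0174), a sign that turned under the same alternative. ROBO2 went from 3.32, 3.73 and 3.53 to 1.09, 1.06 and 1.03 FPKM in WT (log2 change -1.13, SE 0.08, limma adjusted p = 1.10e-09), and no day 18 library of any construct reached a day 0 one. ROBO3, a divergent receptor best known from commissural axons, rose marginally in WT, from 1.39, 1.29 and 1.06 to 1.66, 1.65 and 1.49 FPKM (log2 change 0.21, SE 0.08, limma adjusted p = 0.0282). That call was lost in 6 of 27 alternatives and ROBO3 did not pass in C14R or deletion cells. The summed ROBO FPKM was 22.4 ± 0.568 and 20.2 ± 0.831 in WT (SD, n = 3), a log2 ratio of -0.15 that became 0.06 with small RNA genes left out.

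The netrins were low, none above 5 FPKM in any library, and moved both ways. NTN4, a laminin-like netrin, rose from 1.48, 1.16 and 1.07 to 2.23, 2.32 and 2.38 FPKM in WT (log2 change 0.57, SE 0.08, limma adjusted p = 1.02e-05). Of the membrane-anchored netrin-G proteins, which bind NGL partners and not DCC, NTNG2 rose and NTNG1 fell, in all 3 constructs. NTNG2 went from 1.96, 1.63 and 1.99 to 3.47, 3.25 and 2.92 FPKM (log2 change 0.56, SE 0.15, limma adjusted p = 0.00243). NTNG1 went from 3.97, 3.96 and 3.56 to 2.80, 2.18 and 2.25 (log2 change -0.51, SE 0.09, limma adjusted p = 7.79e-05). The days were apart for NTNG1 in all constructs and for NTNG2 in WT and deletion cells, while they overlapped for NTNG2 in C14R. NTN3 overlapped between days and passed in no construct (WT limma adjusted p = 0.374). NTN1, the classical DCC ligand, was below the filter at 0.2001 to 0.433 FPKM on day 0 and 0.116 to 0.447 at day 18.

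The netrin receptors were led by UNC5C and UNC5B on both days. UNC5B fell from 40.6, 40.3 and 37.6 to 21.4, 24.0 and 21.4 FPKM in WT (log2 change -0.80, SE 0.09, limma adjusted p = 4.27e-07). UNC5C rose a little, from 48.9, 49.4 and 50.4 to 53.9, 55.0 and 56.6 (log2 change 0.15, SE 0.04, limma adjusted p = 0.00115). Their days did not overlap in any construct, and UNC5C went from 51.5% to 68.0% of the family's summed FPKM in WT. UNC5A fell from 3.85, 4.34 and 4.01 to 2.53, 2.67 and 2.23 FPKM (log2 change -0.54, SE 0.10, limma adjusted p = 1.22e-04). UNC5D fell from 1.546, 1.504 and 1.92 to 1.11, 1.04 and 1.27 (log2 change -0.31, SE 0.09, limma adjusted p = 0.00378), a call that was lost when small RNA genes were left out (-0.19, limma adjusted p = 0.0671). UNC5A overlaps the coding gene HK3. The summed FPKM of the family was 96.2 ± 0.720 and 81.2 ± 1.95 in WT (SD, n = 3). Its log2 ratio of -0.25 in WT was -0.04 with small RNA genes left out, and those of C14R and deletion cells (-0.18 in each) turned to 0.00932 and 0.04. DCC, the attractive receptor, was below the filter over all libraries but not at day 0: it read 1.40, 1.44 and 1.56 FPKM on day 0 and 0.132, 0.137 and 0.141 at day 18 in WT. No day 18 library of the 9 exceeded 0.141 FPKM and no day 0 library was under 1.40. With the filter removed DCC fell in all constructs (-1.12, -1.19 and -1.29 in WT, C14R and deletion cells, limma adjusted p = 7.67e-10 in WT), a fall of 10.7-fold in mean FPKM in WT.

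In the Eph receptors the most abundant member of each class fell and a low one rose. EPHA2, an epithelial and progenitor receptor tyrosine kinase for ephrin-A1, read 11.7, 12.4 and 12.5 FPKM on day 0 and 2.02, 2.65 and 2.08 at day 18 in WT. It read 10.9, 11.5 and 11.5 and then 1.78, 2.79 and 2.18 in C14R, and 13.9, 13.6 and 12.9 and then 2.10, 2.26 and 1.90 in deletion cells. All day 18 libraries lay below all day 0 libraries, a 5.42-fold fall in WT (log2 change -2.03, SE 0.10, limma adjusted p = 3.48e-12). EPHA2, whose promoter carries the full TGACGTCA element shown above, lies on chromosome 1, 16124337 to 16156087, minus strand. EPHA10, which lacks kinase activity, rose 5.02-fold in WT, from 0.385, 0.739 and 0.549 to 2.86, 2.80 and 2.74 FPKM (log2 change 1.29, SE 0.10, limma adjusted p = 3.02e-09). Its WT values of day 0 lay under the level of the filter. EPHA6 rose from 2.98, 2.51 and 2.24 to 5.40, 5.07 and 6.12 (log2 change 0.87, SE 0.17, limma adjusted p = 1.80e-04). EPHA2 went from 76.1% to 20.1% of the summed EphA FPKM in WT and EPHA6 from 16.1% to 49.4%, while the sum went from 16.01 ± 0.491 to 11.2 ± 0.549 (SD, n = 3). The other 6 EphA receptors were below the filter.

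EPHB4, the receptor of ephrin-B2, fell from 11.1, 12.2 and 12.3 to 3.89, 4.12 and 3.71 FPKM in WT (log2 change -1.39, SE 0.09, limma adjusted p = 1.44e-10). EPHB2, another receptor of ephrin-B ligands, fell from 4.87, 5.31 and 5.10 to 3.82, 3.79 and 3.28 (log2 change -0.40, SE 0.07, limma adjusted p = 8.25e-05). EPHB1 rose 14.4-fold in mean FPKM in WT from a low start, and it met the filter through its day 18 values alone. It read 0.242, 0.0723 and 0.210 FPKM on day 0 and 2.61, 2.32 and 2.61 at day 18 in WT, and 0.215, 0.217 and 0.213 and then 2.91, 2.49 and 2.18 in C14R. Deletion cells gave 0.387, 0.237 and 0.218 and then 2.86, 2.80 and 2.70. No day 0 library exceeded 0.387 FPKM and no day 18 library was under 2.18 (log2 change 1.58, SE 0.09, limma adjusted p = 8.28e-11 in WT). EPHB1 lies on chromosome 3, 134597801 to 135260467, plus strand, starts in GENCODE upstream of the RefSeq start shown above, and overlaps the coding gene KY, as EPHB4 does SLC12A9. EPHB3 passed in WT only (0.23, limma adjusted p = 0.0305, against -0.02 and 0.11 in C14R and deletion cells), and whether the constructs differ in it was not shown (interaction log2 -0.25 and -0.12, limma adjusted p = 0.872 and 0.906). EPHB4 went from 61.5% to 30.5% of the summed EphB FPKM in WT and EPHB1 from 0.913% to 19.6%, while the sum went from 19.3 ± 0.625 to 12.8 ± 0.413 (SD, n = 3).

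Among the ephrin ligands EFNB3 became the leading one. EFNB3, a membrane-spanning ligand of the EphB receptors, rose 2.67-fold in WT, from 13.6, 14.3 and 15.6 to 40.4, 40.1 and 35.9 FPKM (log2 change 1.36, SE 0.06, limma adjusted p = 4.13e-12), and by 1.41 and 1.53 on the log2 scale in C14R and deletion cells. EFNB1 fell 3.29-fold in WT, from 4.602, 4.67 and 4.80 to 1.37, 1.57 and 1.34 FPKM (log2 change -1.23, SE 0.08, limma adjusted p = 2.38e-10). EFNB2 passed in no construct: it read 16.7, 16.9 and 18.4 FPKM and then 17.6, 17.0 and 18.0 in WT (log2 change 0.02, 95% interval -0.10 to 0.13), a sign that turned with median-of-ratios scaling and quantile normalization, while with small RNA genes left out it passed as higher (0.21, limma adjusted p = 0.00211). The summed ephrin-B FPKM went from 36.5 ± 2.05 to 57.7 ± 2.19 in WT (SD, n = 3), with EFNB3 at 39.7% of it at day 0 and 67.1% at day 18. So at day 18 the EphB ligand EFNB3 and the receptor EPHB1 were higher, and the ligand EFNB1 and the receptors EPHB4 and EPHB2 lower, than at day 0.

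The ephrin-A ligands, anchored to the membrane by a lipid, all changed by less than 1 on the log2 scale in WT. EFNA3 rose from 6.91, 7.88 and 6.87 to 11.03, 10.7 and 9.82 FPKM in WT (log2 change 0.49, SE 0.09, limma adjusted p = 1.91e-04). EFNA2 rose from 5.72, 5.67 and 5.07 to 8.48, 6.99 and 6.94 (log2 change 0.38, SE 0.10, limma adjusted p = 0.00241). EFNA5, a well-known repellent in topographic mapping, fell from 9.92, 10.1 and 10.1 to 6.23, 6.80 and 5.53 FPKM (log2 change -0.62, SE 0.06, limma adjusted p = 4.45e-08). EFNA4 fell in all constructs, in WT from 8.14 to 6.11 FPKM (-0.36, limma adjusted p = 0.0247) and in deletion cells from 10.2 to 4.48 (-1.03, limma adjusted p = 2.26e-06). EFNA1, the ligand of EPHA2, read 8.75, 8.96 and 10.3 and then 7.96, 7.10 and 7.32 FPKM in WT, where the days did not overlap yet the test did not pass (log2 change -0.29, SE 0.14, limma adjusted p = 0.0766). It fell in C14R and deletion cells (-0.46 and -0.41). Without C14R day 18 replicate 1, which read 4.40 FPKM, EFNA1 passed in WT too (limma adjusted p = 0.00197). EFNA3 and EFNA4 lie next to each other on chromosome 1 and both overlap the gene model AL691442.1, so their reads may be shared. The summed ephrin-A FPKM was 40.2 ± 0.456 and 37.7 ± 2.38 in WT (SD, n = 3), a log2 ratio of -0.09 that became 0.12 with small RNA genes left out.

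**Figure D3:**
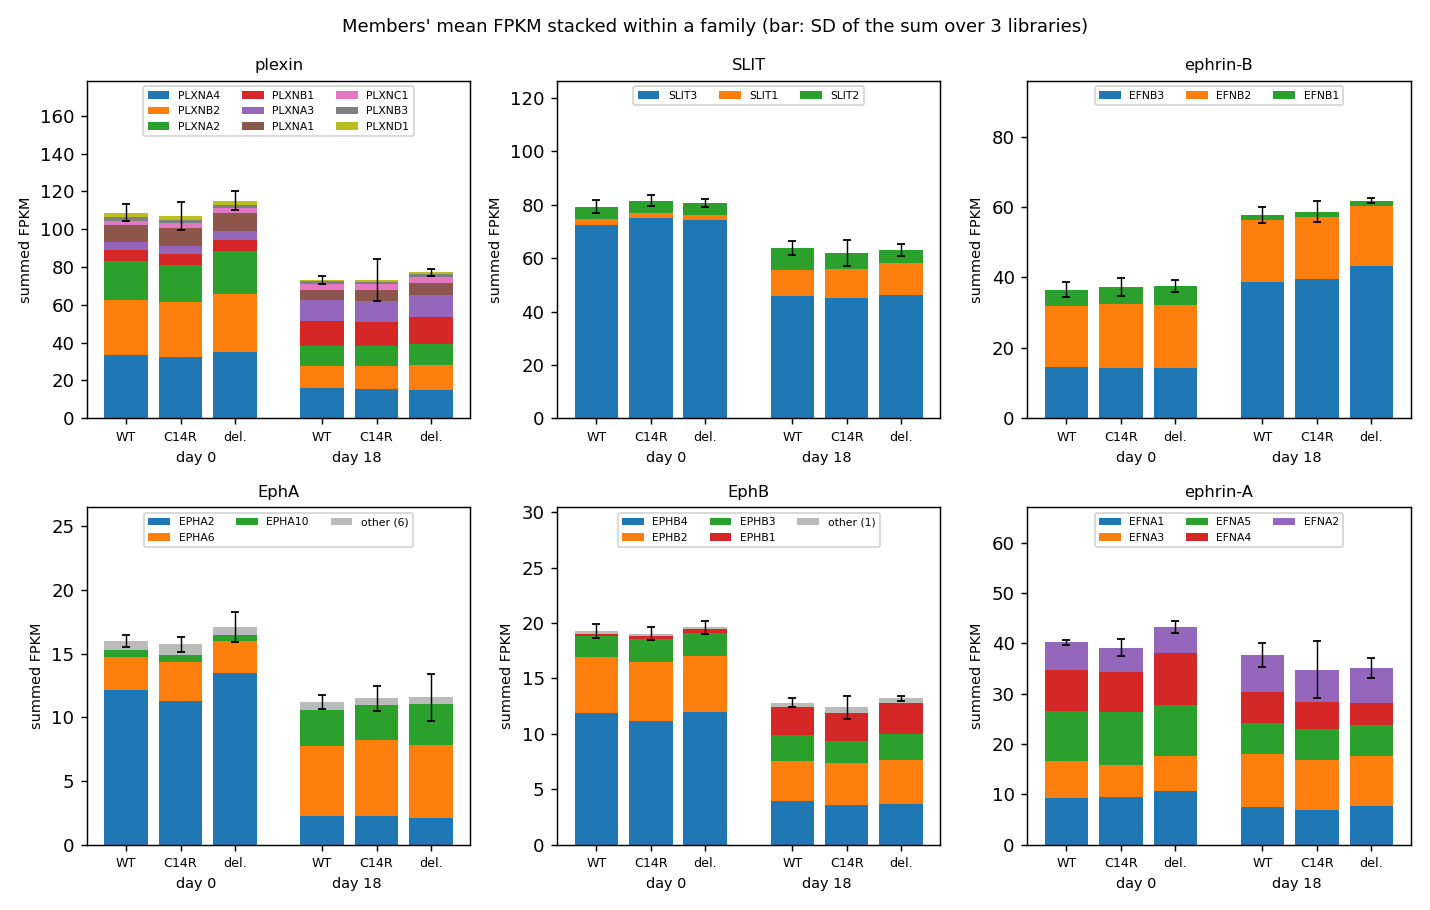
Mean FPKM of the members of 6 families stacked to the family's sum (y axis) for each construct at day 0 and day 18, with the SD of the sum over 3 libraries as a bar and members below the filter in grey. The plexin stack shrinks while the PLXNA3 and PLXNB1 parts grow, SLIT1 enters the SLIT stack, EFNB3 widens the ephrin-B stack, and EPHA2 and EPHB4 shrink within theirs.

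The 17 members below the filter were SEMA3E, SEMA3G, SEMA4A, SEMA5B, SEMA6B, SEMA7A, ROBO4, NTN1, NTN5, DCC, EPHA1, EPHA3, EPHA4, EPHA5, EPHA7, EPHA8 and EPHB6. EPHA4 and EPHA5, 2 of the main neuronal EphA receptors, were listed at 0 in all 18 libraries, and EPHA3 in all but 1. ROBO4, an endothelial receptor, did not exceed 0.239 FPKM in any library. With the filter removed, SEMA5B rose in WT from 0.371 to 1.04 FPKM (log2 change 0.57, limma adjusted p = 9.08e-06) and SEMA6B from 0.0518 to 0.568 (0.57, limma adjusted p = 8.29e-06), both also in C14R and deletion cells. SEMA3E, the ligand of PLXND1, fell with its receptor, from 0.343 to 0.0797 FPKM (-0.32, limma adjusted p = 4.60e-04). Of the 69 members with a value above 0, 51 (73.9%) then passed in WT, 51 in C14R and 52 (75.4%) in deletion cells, against 54.2%, 53.9% and 54.6% of the 21412 genes in that fit.

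The other genes of the guidance pathways moved both ways, as did all genes tested. Of 16 tested genes on a list of further cues and co-receptors, 9 rose and 1 fell in WT (median log2 change 0.16 against 0.03 over all genes), 9 rose and 2 fell in C14R, and 10 rose and 2 fell in deletion cells. In WT, CHL1, a partner of neuropilin in adhesion, rose from 0.585 to 9.53 FPKM (log2 change 2.73, limma adjusted p = 2.26e-15). RGMB, a repulsive guidance molecule that binds neogenin, rose from 10.5 to 47.4 (2.07). L1CAM, which associates with NRP1, rose from 27.97 to 113 (1.97). CXCR4, the receptor of the chemokine CXCL12, fell from 35.6 to 8.56 FPKM (-1.94, limma adjusted p = 3.68e-13), and NEO1, the neogenin receptor, rose by 0.11. Of 37 tested intracellular effectors, 17 rose and 13 fell in WT (median 0.11), 16 and 13 in C14R and 18 and 11 in deletion cells. Beside the counts of both lists, 38.2% of all genes tested were higher and 34.0% lower in WT. The same shares were 37.9% and 35.0% in C14R and 38.6% and 34.4% in deletion cells. The collapsin response mediators, which act downstream of SEMA3A, were not uniform. DPYSL3 rose from 64.4 to 374 FPKM (2.52), DPYSL5 from 31.2 to 67.9 (1.10), CRMP1 from 85.4 to 172 (1.00) and DPYSL2 from 122.9 to 214 (0.79), while DPYSL4 fell from 25.6 to 22.0 (-0.21, limma adjusted p = 0.0493). MICAL2, of the actin-oxidising family that plexins recruit, fell from 9.82 to 0.527 FPKM (-2.84), and ABLIM1, an actin-binding protein, from 32.6 to 12.1 (-1.37). SRGAP3, a SLIT-ROBO GTPase activator, rose from 3.30 to 11.2 (limma adjusted p = 8.52e-14).

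Between the ZNHIT3 constructs, none of the 54 tested guidance genes passed the threshold on either day. The comparison sets the construct with a variant form of ZNHIT3 against the one with the wild-type form. ZNHIT3 differed in level too. At day 18 it read 1103 to 1193 FPKM in WT, 600 to 756 in C14R and 294 to 313 in deletion cells. On day 0 it read 531 to 542, 419 to 432 and 292 to 310. Form and level cannot be told apart in these comparisons or in the interactions. For C14R against WT, 0 of 54 members passed limma's adjusted p at day 0, where 0% of all genes tested passed, and 2 members had an unadjusted p under 0.05 (3.7%) against 2.81% of all genes. At day 18, 0 members passed against 0.0363% of all genes, and 8 had an unadjusted p under 0.05 (14.8%) against 11.1%. For the deletion against WT, 0 members passed at day 0 against 0.0290%, with 3 under 0.05 unadjusted (5.56%) against 6.22%, and 0 at day 18 against 0.0725%, with 9 under 0.05 unadjusted (16.7%) against 11.4%. Between C14R and the deletion, 0 members passed at day 0 against 0.0580% and 0 at day 18 against 0.0290%, with 9 (16.7%) and 3 (5.56%) under 0.05 unadjusted against 9.84% and 11.2%. A p that misses the threshold does not show that the constructs act alike, and the members nearest to it are given with their values. Because these members were picked by a small p, a lack of overlap between their libraries adds no separate support.

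SEMA6A had the smallest p of the members for C14R against WT at day 18. It read 10.2, 10.3 and 10.0 FPKM in WT, 12.2, 11.5 and 12.3 in C14R and 11.6, 10.5 and 11.4 in deletion cells. The C14R libraries were all above the WT ones, by 0.22 on the log2 scale (SE 0.05, limma adjusted p = 0.134). With array weights, which give uneven libraries less weight, the comparison passed (limma adjusted p = 0.0412). It passed in only 1 of 28 alternatives, over which limma adjusted p ran up to 0.931. UNC5C was also above WT in all libraries of both variants at day 18, by 0.13 in C14R (SE 0.04, limma adjusted p = 0.164) and 0.13 in deletion cells (SE 0.04, limma adjusted p = 0.211). The deletion comparison passed in 1 of 28 alternatives, with array weights (limma adjusted p = 0.0489), and its limma adjusted p ran up to 0.533. At day 0 NTNG1 had the smallest p for C14R against WT, at 4.51, 4.90 and 4.48 against 3.97, 3.96 and 3.56 FPKM (log2 difference 0.22, SE 0.09, limma adjusted p = 1). SEMA6C had it for C14R against the deletion at day 18, at 8.30, 11.9 and 11.5 against 14.6, 11.96 and 12.9 FPKM (log2 difference -0.30, SE 0.10, limma adjusted p = 0.420).

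The SLITs stood nearest to the threshold in the deletion. SLIT1 read below WT at day 0, with 1.51, 1.58 and 1.81 against 1.97, 2.32 and 2.23 FPKM (log2 difference -0.27, SE 0.06, limma adjusted p = 0.519). It read above WT at day 18, with 12.6, 11.9 and 11.7 against 9.50, 10.0 and 9.66 (0.28, SE 0.06, limma adjusted p = 0.132). The libraries did not overlap on either day, and C14R was above the deletion at day 0 in SLIT1 by 0.26 (limma adjusted p = 0.209). SLIT2 at day 18 read 7.68, 9.14 and 8.62 FPKM in WT, 3.77, 7.90 and 5.68 in C14R and 3.99, 6.20 and 4.73 in deletion cells, with every deletion library below every WT one and C14R overlapping WT. The SLIT2 difference from WT was -0.68 for the deletion (SE 0.17, limma adjusted p = 0.156) and -0.53 for C14R (SE 0.17, limma adjusted p = 0.228). The deletion passed with array weights (-0.73, limma adjusted p = 0.0227) and without C14R day 18 replicate 1 (limma adjusted p = 0.0315). C14R passed without C14R day 18 replicate 2 (-0.74, limma adjusted p = 0.0345), which was its highest library. SEMA3C and SEMA3A were below WT in all deletion libraries at day 18, by -0.18 and -0.22 (limma adjusted p = 0.177 and 0.218).

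Whether the change over 18 days depended on the construct was tested as an interaction. For C14R, 0 members passed against 0% of all genes, and 3 had an unadjusted p under 0.05 (5.56%) against 5.73%. SEMA6A had the smallest p (0.28, SE 0.08, limma adjusted p = 0.651). For the deletion, 0 members passed against 0.0145%, and 6 had an unadjusted p under 0.05 (11.1%) against 7.36%. SLIT1 came nearest: its change over time differed between the deletion and WT by 0.55 on the log2 scale (SE 0.09, limma adjusted p = 0.0684). It passed in 4 of 28 alternatives: without a mean-variance trend (limma adjusted p = 0.0209), with array weights (limma adjusted p = 0.0393), without WT day 0 replicate 1 (limma adjusted p = 0.0450) and without deletion day 0 replicate 3 (limma adjusted p = 0.0428). The limma adjusted p over all 28 ran from 0.0209 to 0.297, with the log2 value between 0.52 and 0.70. Of the members under 0.05 unadjusted, EFNA4 had the largest interaction in size (-0.68, SE 0.19, limma adjusted p = 0.386), followed by SLIT2 (-0.67, SE 0.23, limma adjusted p = 0.521). For the 9 members that passed by day in 1 or 2 constructs, no interaction passed, the smallest limma adjusted p being 0.420 for SEMA3A in the deletion (-0.30). The comparisons of each day with WT and the interactions share the same WT libraries, so they are not independent of each other.

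**Figure D4:**
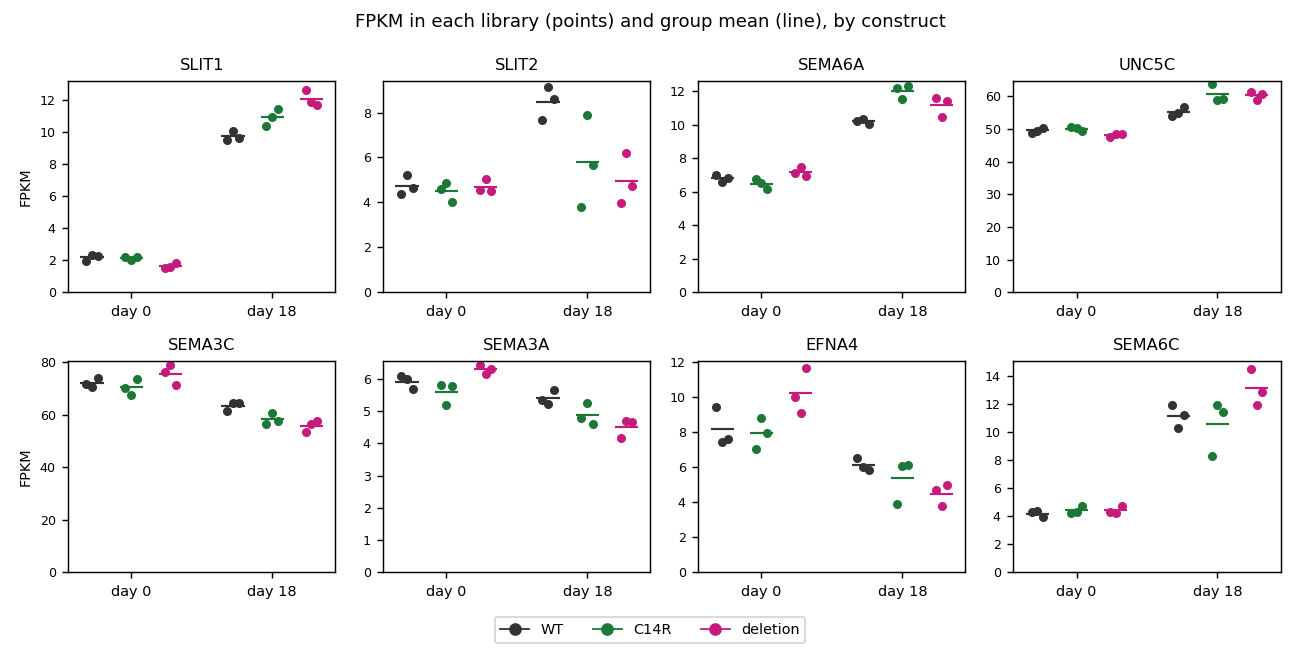
FPKM from 0 in each library (points) with the mean of each group of 3 (line), by construct and day, for 8 members with a small p between constructs. SLIT1 rises from 2.17 to 9.73 FPKM in WT and from 1.63 to 12.1 in deletion cells, and SLIT2 at day 18 is spread from 3.77 to 9.14 FPKM over the 9 libraries.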

How the data were processed

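The authors deposited one table of FPKM for 18 libraries, with a row for each gene symbol. Total RNA was extracted with TRIzol, treated with DNase I, depleted of ribosomal RNA and made into libraries with a NEBNext Ultra kit, per the labels' protocols. TopHat2, STAR, Cufflinks 2.2.1 and hg38 are named, with no role or order, per the submitters' processing notes, and annotation, strand and parameters are not given in the sources used here. FPKM keeps no counts, so no count test was run and low values carry an unknown counting error.

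Groups follow the titles and treatment labels. Values were tested as log2(FPKM + 1) over the 13785 genes with a mean of at least 1 FPKM, 4960 of the 26372 being 0 in all libraries, with limma 3.58.1 in R 4.3.3, a mean-variance trend, 1 fit of the 6 groups and Benjamini-Hochberg adjustment over all genes tested at 0.05. The script was tested on simulated data. A glial marker list is given by single genes, since 1 of its results is not reported here. The members, the gene lists and the tests were chosen with earlier results of these data known. Members given in full are, in each family, up to 3 past the threshold in WT with the largest change and no overlap between days, the most abundant one, and the one with the smallest p in a construct comparison; every other member may be given by its values. Alternatives covered the pseudocount (0.1), the filter, 3 rescalings, the variance model, the replicate block, the libraries fitted, a log2 change of at least 1 and leaving out each library. Gene positions are from GENCODE 29, and promoters from RefSeq (GRCh38.p14).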

Additional observations from a re-analysis of the deposited data

How the results depend on the processing

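The 3 day comparisons held 42 to 52 members past the threshold under 27 of 29 alternatives each. The counts were lower where fewer genes or a stricter call were used: with a mean of at least 5 FPKM, 27, 28 and 29 of the 33 members then tested passed in WT, C14R and deletion cells, and with a log2 change of at least 1, 17, 17 and 17. Leaving out each library in turn gave 42 to 47, 43 to 46 and 43 to 46. Without C14R day 18 replicate 1 they were 47, 45 and 46. Between constructs the count of 0 became 1 for C14R against WT at day 18 with array weights, 2 for the deletion against WT at day 18 with array weights, and 1 for the deletion by day interaction with array weights and with no variance trend. Leaving out each library gave 0 to 1 in these 3 and 0 in the other 5; the cause was not tested. With small RNA genes left out, day changes in WT turned sign for SEMA3C (0.0225), ROBO1 (0.19), SEMA3A (0.0677) and SEMA4C (0.12), as did the log2 ratios of the summed ROBO FPKM (0.0636, from -0.15) and ephrin-A FPKM (0.12, from -0.09). For ROBO1, near 0, this also happened without WT day 0 replicate 1 (0.017), WT day 18 replicate 1 (0.024) or WT day 18 replicate 2 (0.0016), within a range of -0.0497 to 0.024 over all libraries. With the replicate number as a block (replicate block), 45, 44 and 45 members passed by day and 0 between constructs. Over the tested genes same-numbered libraries did not deviate together (r from -0.36 to 0.17 over 45 pairs, 6 over 0.1). In 14 of 45 cases a library correlated best with its own number, so the samples were not treated as paired. SNORD3A alone did go with the number on day 0, at 51.45% to 58.56% of the FPKM sum in replicate 1 and 6.875% to 7.693% in replicate 2. Replicate 3 ran from 8.626% to 57.35% there, and replicate 1 from 1.01% to 15.1% at day 18. The reason was not tested. Depth limits members near 1 FPKM, and the table cannot say by how much.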
